A study of Mus musculus with 16 samples.

Results

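The enzymes of the urea cycle and of amino acid breakdown in mouse liver were followed through 38 genes, taken by name from the 55421 genes of the deposited count table, by a rule that uses no measured value. All 38 passed the low-count filter, which 23018 genes passed, and the lowest count of any member in any library was 437. The members fall into 8 groups by role: the urea cycle, tyrosine, tryptophan and kynurenine, histidine, methionine and homocysteine, serine with glycine and glyoxylate, proline with lysine and the branched-chain amino acids, and glutamine with the transaminases.

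The RNA came from whole liver of male mice, with 4 libraries in each of 4 groups: control and HIRA KO, before and after regeneration. HIRA belongs to a histone chaperone complex that lays down H3.3 independently of replication. The control groups held wildtype C57BL/6 mice given AAV8-Tbg-Cre or AAV8-Tbg-saCas9/U6-sgRNA-Rosa26, and the HIRA KO groups held HIRA fl/fl mice given AAV8-Tbg-Cre or wildtype mice given AAV8-Tbg-saCas9/U6-sgRNA-HIRA, so every mouse, controls included, had received a virus. The Tbg promoter drives the nuclease or recombinase in hepatocytes, and the other cells of the liver kept Hira. Virus was given at 6 months of age and the left lateral and median lobes were resected 4 weeks later; these lobes were the tissue before regeneration, and the liver that remained was taken 5 days afterwards. Time, lobe and manner of collection therefore cannot be told apart in a comparison of after with before. Each group had 2 libraries of each of the 2 knockout approaches, but the table's columns carry only a group and a number from 1 to 4, so the approach was not used here.

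Hepatocytes dispose of the nitrogen released from amino acids by building urea. Cps1 loads ammonia as carbamoyl phosphate with the help of the activator made by Nags, Otc joins it to ornithine, Ass1 and Asl bring in the nitrogen of aspartate, and Arg1 splits arginine into urea and ornithine, which Slc25a15 carries back into mitochondria. The carbon skeletons are taken apart by a separate set of liver enzymes, among them Tat, which opens tyrosine breakdown, Tdo2, which opens the kynurenine route from tryptophan, and Ahcy, which clears the by-product of methylation. Many of these genes are known to answer to fasting, glucagon and glucocorticoids, and their transcripts are among the most abundant of the liver.

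Levels per transcript length, as FPKM (fragments scaled to transcript length and library size, as deposited), covered a wide range. The median over the 16 libraries ran from 17.3 FPKM for Mccc1, a subunit of the leucine-breakdown carboxylase, to 1358 FPKM for Ass1. Gnmt, which uses up surplus methyl groups, followed at 973 FPKM, and then Hpd of the tyrosine route at 762 FPKM and Arg1 at 707 FPKM. Apart from Mccc1, the lowest were Amt of the glycine cleavage system at 23.3 FPKM, Afmid of the kynurenine route at 31.5 FPKM, Nags at 31.95 FPKM and Prodh, the first enzyme of proline breakdown, at 33.7 FPKM. All other values are given as CPM (counts of a gene scaled to the library total), adjusted by edgeR's TMM factors, which compare a gene between libraries but not genes of different length with each other.

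Of the 38 members, 4 were called lower after regeneration in both genotypes (edgeR adjusted p under 0.05). For 2 of them, Tat and Ahcy, the stretch just before the start site held no annotated exon. Their promoters are shown because these 2 genes were called lower in control and HIRA KO livers alike. The sequences are the 250 bases before the start of each gene in RefSeq on GRCm38.p6, written along the gene's own strand, with the CCAAT box in capitals in either orientation (CCAAT or ATTGG). Tat lies at chr8:109990186-109990435 on the plus strand and Ahcy at chr2:155074498-155074747 on the minus strand.
Tat: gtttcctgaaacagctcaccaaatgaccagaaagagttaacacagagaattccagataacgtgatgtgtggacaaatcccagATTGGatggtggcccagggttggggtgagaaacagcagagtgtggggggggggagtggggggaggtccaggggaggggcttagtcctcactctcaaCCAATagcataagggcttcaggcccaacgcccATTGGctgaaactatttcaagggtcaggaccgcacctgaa
Ahcy: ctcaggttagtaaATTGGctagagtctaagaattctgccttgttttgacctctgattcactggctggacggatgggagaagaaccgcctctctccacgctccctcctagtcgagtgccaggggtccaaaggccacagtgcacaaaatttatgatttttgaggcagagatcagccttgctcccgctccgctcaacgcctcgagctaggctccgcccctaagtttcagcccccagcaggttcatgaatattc
The Tat stretch held a CCAAT box at 168, 72 and 40 bases before the start, and the Ahcy stretch held a single one at 237 bases. Across the 29 members with a promoter entry, 16 held CCAAT (55.2%), beside 34.5% of the 27025 promoters of the same length. The TATA box TATAAA stood in 3 of the 29 (10.3%, against 13.0% of all), the E-box CACGTG in 2 (6.9%, against 6.05%), the C/EBP motif TTGCNNAA in 2 (6.9%, against 9.55%) and the D-box TTATGNAA in 1 (3.45%, against 3.23%). The short site TGACG of the cAMP response element stood in 3 (10.3%, against 17.9%), and neither the full element TGACGTCA (1.62% of all) nor the HNF4A motif CAAAGTCCA (0.381% of all) was found in any of them. Both strands were read, TGACG lies inside TGACGTCA, and these letter matches are descriptions and not binding sites. CCAAT and TATAAA were added to the motifs after the expression values had been seen.

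Library totals ran from 15103059 to 21738619 gene counts, with a median of 18337571. Hira itself stood at 5.21 to 6.18 CPM in the controls before and 4.99 to 6.29 CPM after regeneration, and at 3.13 to 4.38 CPM and 3.04 to 4.56 CPM in HIRA KO, so the groups did not overlap at either time. HIRA KO libraries 1 and 2 stood apart from the rest at both times. On the second principal component of all genes, which held 26.5% of the variance, they lay at 47.4 and 36.6 before regeneration and at 40.2 and 36.2 after it, while the other 12 libraries lay between -31.2 and 1.14. Values without these 4 libraries are therefore given beside the results that rest on them for the genes printed by library. Every control library stayed in those fits. Hepatocyte markers, 7 of the 8 listed, added up to 107000 to 119000 CPM in the controls and 122000 to 158000 CPM in HIRA KO before regeneration, without overlap. After regeneration they added up to 113000 to 164000 CPM and 119000 to 139000 CPM. Markers of stellate cells and matrix added up to 201 to 222 CPM in the controls before regeneration, but to 626 and 429 CPM in HIRA KO libraries 1 and 2, and to 225 and 236 CPM in libraries 3 and 4. After regeneration they added up to 162 to 395 CPM in the controls and 305 to 452 CPM in HIRA KO. Cholangiocyte markers added up to 47.8 to 72.4 CPM in the controls before regeneration and to 143 and 97.4 CPM in HIRA KO libraries 1 and 2. The part of these shifts in the results below was not tested. In bulk tissue, fewer hepatocytes and less RNA per hepatocyte cannot be told apart.

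Together the 38 members took 2.51% to 3.17% of all gene counts in the controls before regeneration (median 2.95%) and 1.28% to 2.17% after it (median 1.64%), so the groups did not overlap. In HIRA KO their share was 2.34% to 3.6% before (median 3.05%) and 1.76% to 2.88% after regeneration (median 2.30%), and here the groups did overlap. Library by library, HIRA KO libraries 1 and 2 held 3.51% and 3.6% before and 2.77% and 2.88% after, and libraries 3 and 4 held 2.34% and 2.60% before and 1.76% and 1.83% after. Libraries 1 and 2 thus held the higher shares of HIRA KO at both times. Control libraries 1 to 4 held 3.17%, 2.98%, 2.51% and 2.91% before and 1.97%, 2.17%, 1.28% and 1.31% after. Libraries 1 and 2 held the higher shares there too.

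**Figure D1:**
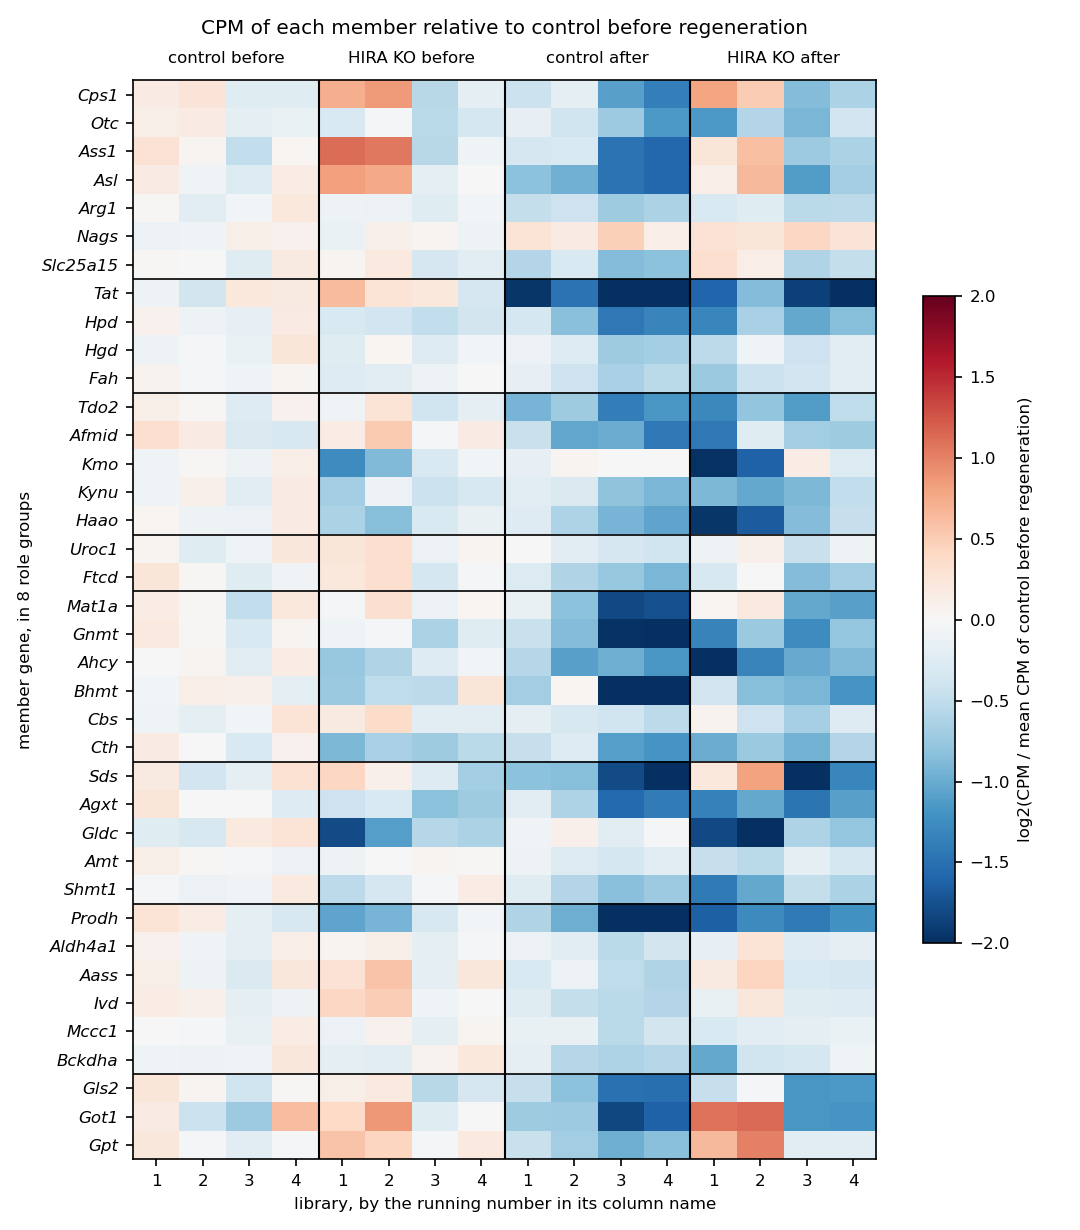
Level of each of the 38 members in each of the 16 libraries, as the log2 of its CPM over the gene's mean CPM in control before regeneration, with genes in rows by role and libraries in columns by group. The colour scale stops at -2 and 2. Most rows are lower in the control libraries after regeneration than before it, and HIRA KO libraries 1 and 2 stand above libraries 3 and 4 of their time in Cps1, Ass1, Asl, Got1 and Gpt and below them in Kmo and Gldc.

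The first question is how the liver's amino acid enzymes stood 5 days after the resection in control mice. Of the 38 members, 12 were called lower after regeneration and none higher (edgeR's quasi-likelihood test, Benjamini-Hochberg adjusted p under 0.05 over all genes). The genes called were Asl and Arg1 of the urea cycle, Tat and Hpd of tyrosine breakdown, and Tdo2 and Afmid of the kynurenine route. The others were Gnmt, Ahcy and Cth of methionine metabolism, Agxt, which detoxifies glyoxylate, Prodh, and Gls2, the liver glutaminase. This is 31.6% of the members, against 4.17% of all 23018 genes tested that were called lower and 11.8% of the 2833 genes expressed at least as highly as the lowest member (mean of 46.7 CPM). The median log2 fold change of the members was -0.65, beside 0.00 over all genes and -0.09 over those 2833, and 37 of the 38 lay below 0. Nags was the exception. The share of counts from mitochondrial genes moved with the comparison, from 6.02% to 6.76% before to 4.43% to 5.46% after regeneration without overlap, and in HIRA KO it was 5.8% to 6.97% before and 4.14% to 6.01% after, with overlap. Its part in the fall of the members was not tested. The 4 libraries after did not overlap with the 4 before for 22 members on the lower side, where the background is 8.98% of all genes and 24.4% of the 2833, and for 1 on the higher side. The count rests on single libraries: it was 5 without control library 1 before or without control library 3 after regeneration, 6 without control library 2 before, 7 without control library 4 after and 20 without control library 1 after. Over all genes, lower calls with 1 control library left out ran from 518 of 22817 to 946 of 22808. Tat, Tdo2, Hpd, Ahcy and Arg1 were called in all 8 fits that left out 1 control library, Prodh in 6, Gnmt in 4, Afmid, Cth and Agxt in 3, and Asl and Gls2 in 2. With the 4 HIRA KO libraries that stood apart out of the fit, Gnmt (edgeR adjusted p = 0.0656) and Agxt (0.0558) missed the threshold. Other members gained a call, and 21 were called in that fit. Over all genes it called 2063 higher and 1795 lower of 21500.

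Tat, tyrosine aminotransferase, showed the steepest fall of the members. It measured 2553, 2111, 3153 and 3083 CPM in the controls before regeneration and 711, 974, 629 and 513 CPM after it. The highest library after regeneration lay well under the lowest before. For Tat the fold change in the controls came to -1.95 ± 0.28 (SE) on the log2 scale, with an edgeR adjusted p of 0.000463. In HIRA KO it measured 4204, 3304, 3169 and 2158 CPM before and 904, 1493, 744 and 608 CPM after regeneration, and again the groups were apart. Tat thus changed in HIRA KO by a log2 fold change of -1.78 ± 0.27 (SE, edgeR adjusted p = 0.000709). Both calls held in every one of the 8 fits that left out a library. The gene lies at chr8:109990437-109999803 on the plus strand of GRCm38 in the GENCODE M21 annotation. Hpd, which turns the keto acid made by Tat into homogentisate, fell in the controls as well, from a mean of 1717 ± 187 to 909.5 ± 326 CPM. The log2 fold change in the controls was -0.92 ± 0.20 (SE), with an edgeR adjusted p of 0.00809. Its HIRA KO libraries were at a mean of 1316 ± 72.2 CPM before and 898 ± 170.4 CPM after regeneration without overlap, yet the difference missed the threshold (log2 fold change -0.55 ± 0.20 SE, edgeR adjusted p = 0.0867). Hgd and Fah, the later steps of the route, did not pass the test in either genotype, with log2 fold changes of -0.42 and -0.43 in the controls and -0.18 and -0.29 in HIRA KO. In the controls Fah missed the threshold narrowly (edgeR adjusted p = 0.0528), its groups did not overlap, and it was called in 7 of 10 other settings.

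In the kynurenine route the first steps, Tdo2 and Afmid, were called lower in both genotypes. Tdo2, tryptophan dioxygenase, measured 1746, 1639, 1342 and 1699 CPM in the controls before and 839, 979.9, 617 and 714 CPM after regeneration. For Tdo2 the fold change in the controls came to -1.03 ± 0.20 (SE) on the log2 scale, with an edgeR adjusted p of 0.00306. In HIRA KO its libraries measured 1538, 1946, 1213 and 1400.5 CPM before and 657, 928, 737 and 1134 CPM after regeneration. In both genotypes the highest library after regeneration was under the lowest before. Tdo2 thus changed in HIRA KO by a log2 fold change of -0.82 ± 0.20 (SE, edgeR adjusted p = 0.0118). Both of its calls held in all 8 fits that left out a library, and the HIRA KO call was lost without the libraries that stood apart (log2 fold change -0.47, edgeR adjusted p = 0.206). Afmid, the formamidase of the next step, measured 71.8, 63.3, 46.1 and 45.3 CPM before and 41.7, 27.7, 28.3 and 20.98 CPM after regeneration in the controls. In HIRA KO it measured 62.9, 81.8, 54.998 and 63.6 CPM before and 21.03, 47.8, 34.9 and 34.6 CPM after. The groups did not overlap in either genotype, and the log2 fold changes were -0.93 ± 0.24 (SE, edgeR adjusted p = 0.0228) and -0.93 ± 0.24 (SE, edgeR adjusted p = 0.0218). The HIRA KO call of Afmid was lost without the libraries that stood apart (log2 fold change -0.76, edgeR adjusted p = 0.134). Its exons share 44.2% of their bases with the annotated gene Gm20708 on the same strand, to which 31 counts were assigned in all, beside 13429 for Afmid. Kmo, Kynu and Haao, the later steps, did not pass the test, with log2 fold changes of -0.02, -0.53 and -0.68 in the controls and -0.12, -0.44 and -0.65 in HIRA KO. In the controls the groups of Kynu and Haao did not overlap either (edgeR adjusted p = 0.0587 and 0.132), while those of Kmo did. In HIRA KO the groups of all these later steps overlapped.

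In methionine metabolism the enzymes that use S-adenosylmethionine and clear its product were lower in the controls. Gnmt, glycine N-methyltransferase, measured 1888, 1674, 1342 and 1712 CPM in the controls before and 1212, 907, 421 and 303 CPM after regeneration. The groups were apart, though libraries 3 and 4 after regeneration lay far under libraries 1 and 2. The log2 fold change in the controls was -1.22 ± 0.33 (SE), with an edgeR adjusted p of 0.0268. Ahcy, which hydrolyses S-adenosylhomocysteine, measured 736, 766, 632 and 820.4 CPM before and 497, 349.6, 377 and 328 CPM after regeneration in the controls. Its HIRA KO libraries measured 437, 487, 616 and 712 CPM before and 173, 295, 369 and 400.2 CPM after. There was no overlap in either genotype. The Ahcy log2 fold changes were -0.93 ± 0.22 (SE, edgeR adjusted p = 0.0123) in the controls and -0.87 ± 0.22 (SE, edgeR adjusted p = 0.0177) in HIRA KO. In HIRA KO the calls of Ahcy and of Afmid each held in 6 of the 8 fits that left out a library. Gnmt missed the threshold in HIRA KO (log2 fold change -0.77 ± 0.33 SE, edgeR adjusted p = 0.139). Cth, which makes cysteine from cystathionine, was called in the controls (log2 fold change -0.69 ± 0.19 SE, edgeR adjusted p = 0.0225) and not in HIRA KO (log2 fold change -0.12 ± 0.18 SE, edgeR adjusted p = 0.743), where its libraries stood at 240.3 to 306 CPM before regeneration. Mat1a and Bhmt had large but uneven differences in the controls. Bhmt, which remakes methionine with betaine, measured 1370.0, 2277, 383 and 347 CPM after regeneration against 2127, 2439.6, 2369 and 1935 CPM before, and the groups overlapped (log2 fold change -1.02 ± 0.48 SE, edgeR adjusted p = 0.216). Mat1a and Cbs had log2 fold changes of -0.96 and -0.35 in the controls and -0.41 and -0.34 in HIRA KO, none past the threshold, and Mat1a was at -1.003 in HIRA KO without the libraries that stood apart.

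**Figure D2:**
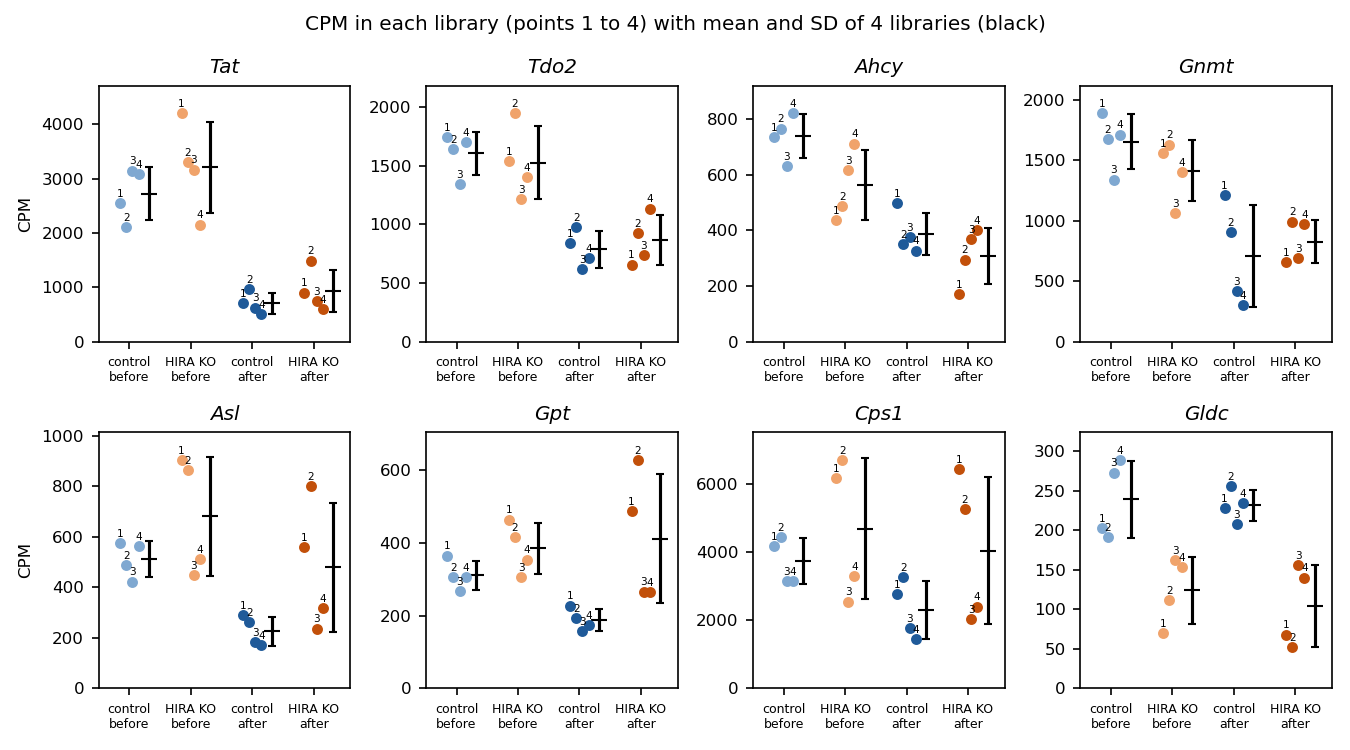
CPM (y axis) of 8 members in each library, with groups along the x axis, 1 numbered point per library, and black bars for the mean and SD of the 4 libraries. Tat fell from 2111 to 3153 CPM in the controls before regeneration to 513 to 974 CPM after it, and Gpt after regeneration was 264 to 627 CPM in HIRA KO against 157 to 227 CPM in the controls.

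Of the 7 urea cycle members, 2 were called lower after regeneration in the controls. Asl, argininosuccinate lyase, measured 574, 486, 422 and 564 CPM in the controls before and 289, 262, 183 and 172 CPM after regeneration. No library after reached the lowest before. For Asl the fold change in the controls came to -1.18 ± 0.34 (SE) on the log2 scale, with an edgeR adjusted p of 0.0363. Arg1, arginase, measured 1391, 1181, 1315 and 1588 CPM before and 984, 1033, 837 and 882 CPM after regeneration in the controls. Its groups were apart as well, and the change was smaller (log2 fold change -0.55 ± 0.13 SE, edgeR adjusted p = 0.0122). Cps1, Otc, Ass1 and Slc25a15 did not pass the test, with log2 fold changes of -0.69, -0.56, -0.80 and -0.62. Slc25a15 missed the threshold narrowly (edgeR adjusted p = 0.0534), and its groups did not overlap. Nags measured 53.8, 55.4, 63.2 and 62.03 CPM before and 70.5, 65.5, 81.6 and 64.3 CPM after regeneration in the controls, the only member whose libraries were all higher after it. It missed the threshold in the controls (log2 fold change 0.27 ± 0.10 SE, edgeR adjusted p = 0.11) and in HIRA KO (log2 fold change 0.32 ± 0.10 SE, edgeR adjusted p = 0.0512), where the libraries were likewise apart. An antisense gene shares 15.6% of its exonic bases, with 172 counts beside 19120 for Nags. In HIRA KO no urea cycle member was called, and the log2 fold changes ran from -0.57 to 0.32.

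In the remaining roles, Prodh, Gls2 and Agxt were called in the controls. Prodh, proline dehydrogenase, measured 203, 185, 148 and 135 CPM before and 109.8, 85.0, 41.9 and 36.7 CPM after regeneration. Prodh thus changed in the controls by a log2 fold change of -1.29 ± 0.32 (SE, edgeR adjusted p = 0.0175). Gls2 measured 422, 369.7, 272 and 364 CPM before and 258, 203, 128 and 125 CPM after. For both genes the libraries did not overlap, and libraries 3 and 4 after regeneration were the lowest. The log2 fold change in the controls was -1.0 ± 0.29 (SE), with an edgeR adjusted p of 0.0347. Agxt, alanine-glyoxylate aminotransferase, fell in the controls from a mean of 239.6 ± 33.6 to 133 ± 57.9 CPM, with 1 library after regeneration inside the earlier range (log2 fold change -0.85 ± 0.24 SE, edgeR adjusted p = 0.0291). None of these 3 was called in HIRA KO, with log2 fold changes of -0.84, -0.50 and -0.67.

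Sds, Got1 and Gpt remove or move amino groups and supply carbon for glucose production. In the controls their log2 fold changes were -1.32, -1.14 and -0.73, and none passed the test (edgeR adjusted p = 0.153, 0.23 and 0.0611). The 2 histidine enzymes did not pass either, with -0.23 for Uroc1 and -0.61 for Ftcd. Gldc, Amt and Shmt1 had -0.05, -0.23 and -0.58. The rest of the lysine, proline and branched-chain enzymes, Aldh4a1, Aass, Ivd, Mccc1 and Bckdha, had log2 fold changes between -0.48 and -0.29, none called. The exons of Bckdha share 61.7% of their bases with B3gnt8 on the opposite strand, with 2096 counts beside 23625, and whether counting used strand was not given in the sources used here.

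In HIRA KO livers the same comparison called 6 of the 38 members lower after regeneration and none higher: Tat, Afmid, Ahcy, Tdo2, Shmt1 and Amt. That is 15.8% of the members, beside 5.53% of all genes and 13.7% of the 2833 genes at least as highly expressed, a share near the latter background. A replicate block by column number gave 10 calls, 9 lower and 1 higher, the latter being Nags (log2 fold change 0.32, edgeR adjusted p = 0.0336), and leaving out HIRA KO library 3 before regeneration gave 3. Over all genes, 1773 were called higher and 1628 lower of 23018 with the block. With that library left out there were 976 and 730 of 22871. The median log2 fold change was -0.39, beside 0.02 over all genes and -0.13 over the 2833, and 35 of the 38 lay below 0. The groups were apart for 10 members on the lower side, where the background is 7.45% of all genes and 16.0% of the 2833. Shmt1, the cytosolic serine hydroxymethyltransferase, measured 151, 172, 211 and 241 CPM in HIRA KO before and 81.8, 107, 156 and 140.3 CPM after regeneration. Its groups overlapped, since library 3 after regeneration lay above library 1 before. For Shmt1 the fold change in HIRA KO came to -0.68 ± 0.19 (SE) on the log2 scale, with an edgeR adjusted p of 0.0285. Amt, the aminomethyltransferase that makes the folate adduct in glycine cleavage, measured 60.4, 65.02, 67.5 and 65.8 CPM before and 47.04, 44.3, 57.0 and 50.5 CPM after. This was a small change with little spread and no overlap. Amt thus changed in HIRA KO by a log2 fold change of -0.38 ± 0.10 (SE, edgeR adjusted p = 0.0177). Both Shmt1 and Amt were called in 4 of the 8 fits that left out a library, and the Amt call was lost without the libraries that stood apart (edgeR adjusted p = 0.155). The members not called in HIRA KO had log2 fold changes between -0.84 for Prodh and 0.32 for Nags. Neither Shmt1 nor Amt was called in the controls, where the edgeR adjusted p was 0.0641 for Shmt1 and 0.159 for Amt.

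Tat, Tdo2, Afmid and Ahcy were called in both genotypes, which is 33.3% of the 12 called in controls and 66.7% of the 6 called in HIRA KO. The share of all genes called in both genotypes was not taken, so this overlap is a description only. For 33 of the 38 members the fall was smaller, or a rise larger, in HIRA KO than in the controls. That difference lay above 0 for 11192 of all 23018 genes and for 1290 of the 2833. The test of that difference, the interaction of HIRA KO with regeneration, called none of the members. The background was also 0.0% of all genes. An unadjusted p under 0.05 was reached by 2 members, Cth and Gpt, or 5.26%, beside 6.81% of all genes and 8.68% of the 2833, and DESeq2 called none of them. The median interaction over the members was 0.18 on the log2 scale, beside -0.02 over all genes and -0.03 over the 2833. The largest 4 were Got1 at 1.20 ± 0.76, Sds at 1.19 ± 0.75, Gpt at 0.82 ± 0.33 and Asl at 0.67 ± 0.47 (SE), with edgeR adjusted p of 0.794, 0.794, 0.65 and 0.819. Without the 4 libraries that stood apart, Got1 was at 0.10, Sds at 0.15, Gpt at 0.43 and Asl at 0.40. The Kupffer cell and macrophage markers moved with regeneration in both genotypes, from a summed 102 to 288 CPM to 599 to 755 CPM in the controls and from 143 to 176 CPM to 545 to 871 CPM in HIRA KO, with 6 of 6 markers called higher in each. The part of this shift in the fall of the members was not tested.

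**Figure D3:**
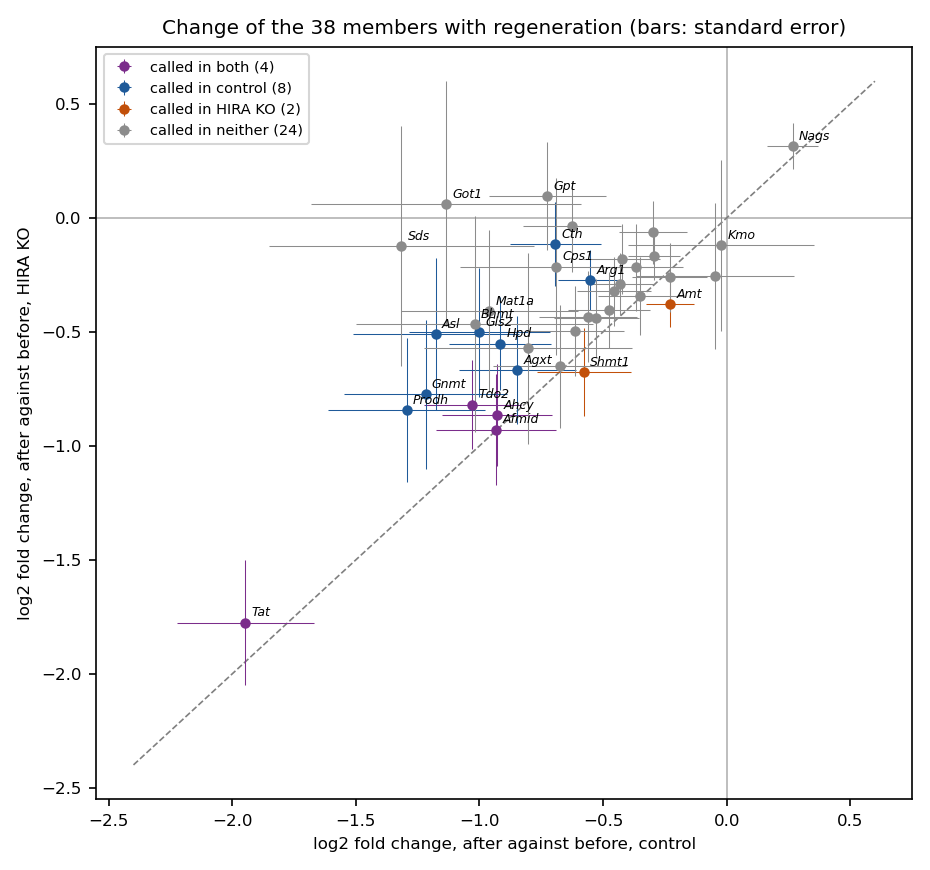
Log2 fold change after against before regeneration for each of the 38 members, in the controls on the x axis and in HIRA KO on the y axis, with bars for the standard error, colours for genes called in both, in 1 or in neither genotype, and a dashed diagonal of equal change. Tat stands at -1.95 and -1.78, most points lie above the diagonal, and no interaction was called.

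The second question is whether loss of HIRA changed these genes before regeneration. None of the 38 members was called (edgeR's quasi-likelihood test), where 0.0391% of all genes were. At an unadjusted p under 0.05 there were 4 members, Cth, Gldc, Agxt and Kynu, or 10.5%, beside 13.2% of all genes and 15.0% of the 2833. DESeq2 called 1, Cth, with an adjusted p of 0.0275, and limma on FPKM called none. Over all genes, DESeq2 called 228 higher and 147 lower of 15792, many more than edgeR, so 1 member is no more than that background. The median log2 fold change was -0.05, beside 0.01 over all genes and -0.05 over the 2833, with 13 members above and 25 below 0. The libraries did not overlap for 5 members, each lower in HIRA KO: Gldc, Cth, Agxt, Haao and Hpd. That is 13.2% of the members, beside 4.53% of all genes and 10.1% of the 2833.

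Gldc, the decarboxylase of the glycine cleavage system, measured 203, 191, 273 and 289 CPM in the controls and 69.4, 111, 162 and 154 CPM in HIRA KO before regeneration. All 4 HIRA KO libraries were below the lowest control, and library 1 was the lowest of all. The log2 difference was -0.95 ± 0.32 (SE), with an edgeR adjusted p of 0.255, and without the libraries that stood apart it was -0.60. Cth measured 502, 448, 361 and 475 CPM in the controls and 240.3, 284, 274 and 306 CPM in HIRA KO, again without overlap, and here HIRA KO libraries 1 to 4 lay close together. The log2 difference of Cth was -0.69 ± 0.19 (SE), with an edgeR adjusted p of 0.16, and without the libraries that stood apart it was -0.62. Agxt measured 282, 238, 238 and 199.9 CPM in the controls and 179, 194, 135 and 147 CPM in HIRA KO (log2 fold change -0.55 ± 0.23 SE, edgeR adjusted p = 0.338). Ass1 had the largest positive difference (log2 fold change 0.55 ± 0.42 SE, edgeR adjusted p = 0.607). It measured 6237, 6026, 1974 and 2714 CPM in HIRA KO against 3539, 3002, 2047 and 2957 CPM in the controls. Only HIRA KO libraries 1 and 2 were above the controls, and without the libraries that stood apart the difference turned to -0.30.

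After regeneration 1 member was called between the genotypes, Gpt, and it was higher in HIRA KO. This is 2.63% of the members, where 0.491% of all genes were called and 0.2% were called higher. Of the 2833, 1.31% were called. At an unadjusted p under 0.05 there were 6 members, or 15.8%, beside 15.8% of all genes and 25.9% of the 2833. The median log2 fold change was 0.13, beside 0.02 over all genes and -0.08 over the 2833, with 26 members above and 12 below 0. The groups did not overlap for 2 members, Gpt on the higher and Gldc on the lower side (5.26%, against 8.1% of all genes). Of the 2833, 3.85% were apart on the higher and 9.88% on the lower side. Gpt, alanine aminotransferase, measured 227, 192, 157 and 175 CPM in the controls and 486, 627, 266 and 264 CPM in HIRA KO. Every HIRA KO library was above every control library, and libraries 1 and 2 were far above libraries 3 and 4. The log2 fold change between the genotypes after regeneration was 1.13 ± 0.24 (SE), with an edgeR adjusted p of 0.0457. The gene lies at chr15:76695716-76699686 on the plus strand of GRCm38 in the GENCODE M21 annotation. The call was lost without the libraries that stood apart, where the log2 difference was 0.52 with an edgeR adjusted p of 0.215, and it was lost without HIRA KO library 1 or 2 or any 1 control library, while 3 members were called when HIRA KO library 3 was left out. The count was also 0 with upper-quartile scaling, with no low-count filter, with only the groups compared, and with limma on FPKM. Before regeneration the log2 difference of Gpt was 0.31 ± 0.24 (SE, edgeR adjusted p = 0.61).

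Gldc lay below the controls after regeneration as well. It measured 228, 256, 207 and 234 CPM in the controls and 68.02, 51.9, 156 and 140.0 CPM in HIRA KO, with no overlap and with HIRA KO libraries 1 and 2 again the lowest. The log2 difference was -1.15 ± 0.32 (SE, edgeR adjusted p = 0.106), and without the libraries that stood apart it was -0.62 (edgeR adjusted p = 0.18). Its HIRA KO libraries were thus below all controls of their own time in 8 of 8 libraries, and its level differed little between the times, with log2 fold changes of -0.05 in the controls and -0.25 in HIRA KO. Got1, the cytosolic aspartate aminotransferase, measured 125, 124, 58.1 and 66.97 CPM in the controls and 436, 449, 91.5 and 90.9 CPM in HIRA KO after regeneration. Libraries 1 and 2 were far above the controls, and libraries 3 and 4 lay among them. The controls split as well, with libraries 1 and 2 above libraries 3 and 4. The log2 difference of 1.51 ± 0.55 (SE, edgeR adjusted p = 0.2) became -0.01 without the libraries that stood apart. Sds, serine dehydratase, measured 106, 103, 53.7 and 36.96 CPM in the controls and 215, 325, 45.2 and 75.2 CPM in HIRA KO and split the same way. Its log2 difference of 1.14 ± 0.54 (SE, edgeR adjusted p = 0.321) turned to -0.30 without the libraries that stood apart. Every control library stayed in that fit, among them the higher libraries 1 and 2. The exons of Sds share 21.3% of their bases with Plbd2 on the opposite strand, with 33490 counts beside 45032 for Sds.

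**Figure D4:**
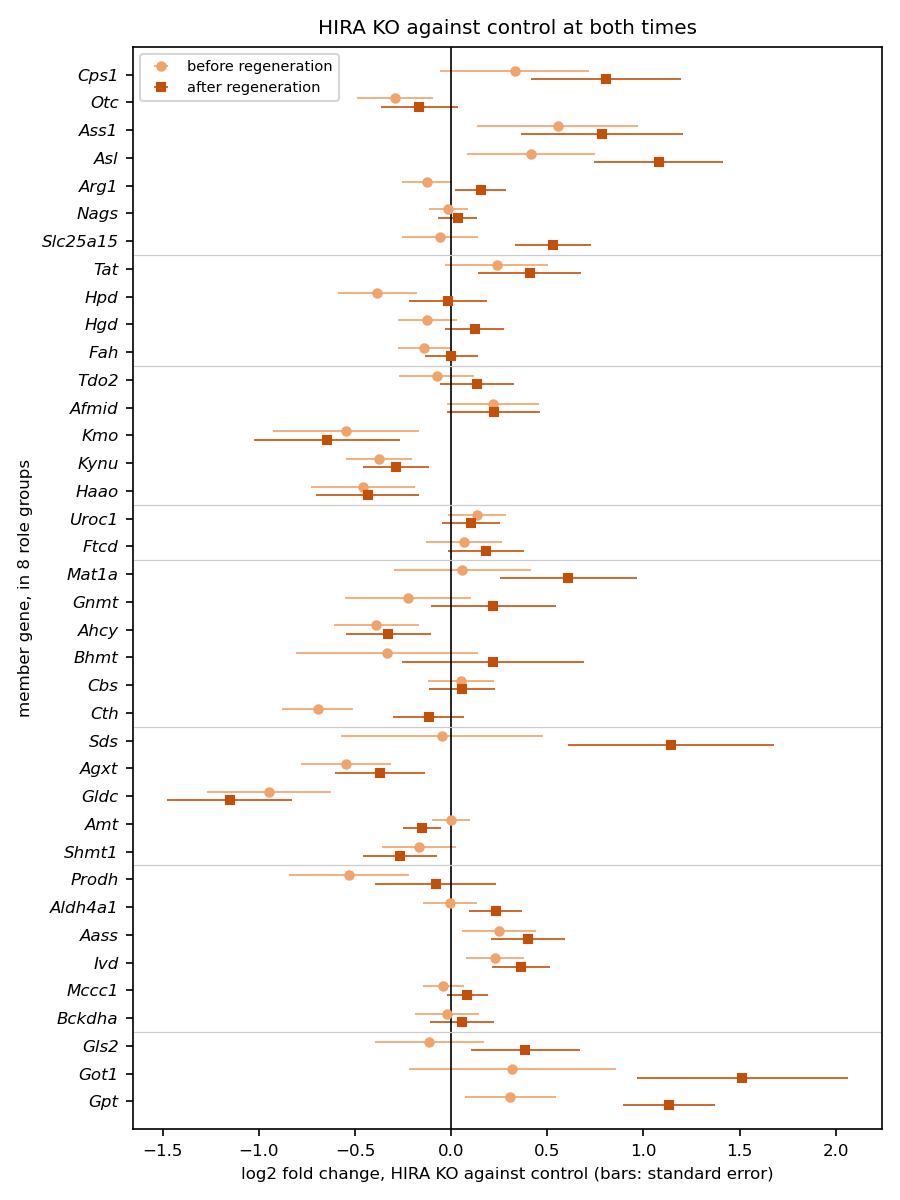
Log2 fold change of HIRA KO against control before and after regeneration for each of the 38 members, with bars for the standard error of the edgeR fit. Only Gpt after regeneration, at 1.13, passed the threshold, and Gldc lies at -0.95 before and -1.15 after regeneration.

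Several members showed the split among the HIRA KO libraries. Cps1 measured 6191, 6719.8, 2553 and 3310.5 CPM in HIRA KO libraries 1 to 4 before and 6455, 5282, 2045 and 2406 CPM after regeneration, where the controls measured 4181, 4449, 3157 and 3149.9 CPM and 2766, 3278, 1767 and 1449.7 CPM. Libraries 1 and 2 were above every control of their time, and libraries 3 and 4 were not. Control libraries 1 and 2 were also above control libraries 3 and 4 at both times. Asl after regeneration measured 559.9, 801, 236 and 318 CPM in HIRA KO, and here all but library 3 were above the highest control at 289 CPM (log2 fold change 1.08 ± 0.34 SE, edgeR adjusted p = 0.135). Without the libraries that stood apart the log2 difference was 0.31 for Asl and -0.04 for Cps1, where it was 0.81 with them. Kmo, the monooxygenase that makes hydroxykynurenine, ran the other way. It measured 149.6, 194, 290.5 and 345 CPM in HIRA KO before and 90.4, 117, 398 and 295 CPM after regeneration, against 342, 363, 334 and 393 CPM and 320.3, 369.8, 360.3 and 359 CPM in the controls. Libraries 1 and 2 were below every control at both times, as library 3 before and library 4 after regeneration were by less, and the log2 differences of -0.55 ± 0.38 and -0.65 ± 0.38 (SE) did not pass the test. Without the libraries that stood apart they were -0.17 before and -0.003 after regeneration. Otc, the enzyme between Cps1 and Ass1, did not share the high values of libraries 1 and 2, at 393, 472, 334 and 379 CPM before and 218, 322, 256 and 372 CPM after regeneration in HIRA KO.

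Counted over the members, HIRA KO libraries 1 and 2 had 9 and 15 of the 38 above all 4 controls before regeneration and 13 and 18 after it. This is 23.7%, 39.5%, 34.2% and 47.4%, beside 16.4%, 21.7%, 17.6% and 27.5% of genes at or above 46.7 CPM on average. Below all controls they had 16 and 12 members before (42.1% and 31.6%, beside 48.3% and 43.3%) and 8 and 7 after regeneration (21.1% and 18.4%, beside 52.6% and 43.1%). HIRA KO library 3 before regeneration had 24 members below all controls (63.2%, beside 23.8%) and 1 above (2.63%, beside 16.3%). Library 4 had 9 below (23.7%, beside 19.2%) and 2 above (5.26%, beside 15.9%). After regeneration libraries 3 and 4 had 3 members each below all controls (7.89%, beside 29.7% and 23.6%) and 3 and 5 above (7.89% and 13.2%, beside 17.5% and 24.6%). No test was made between libraries. Without the 4 libraries that stood apart, the counts of members called were 0 between genotypes before and 0 after regeneration, 21 for regeneration in the controls and 4 in HIRA KO, and the medians were -0.15, 0.00, -0.65 and -0.37. Over all 21500 genes of that fit, regeneration called 2063 higher and 1795 lower in the controls and 1288 and 937 in HIRA KO. Between genotypes 5 were called higher and 0 lower before, and 13 and 2 after regeneration. HIRA KO kept only libraries 3 and 4 at each time, so its tests rest on fewer libraries than the main fit.

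A list of 60 further enzymes and carriers of amino acid metabolism, of which 58 were tested, gave the wider setting. In the controls 20 were called lower and 4 higher after regeneration, and in HIRA KO 10 were called lower and 3 higher. None was called between the genotypes at either time, and none in the interaction. In the controls 41.4% of the 58 were called in either direction, beside 10.2% of all genes and 17.8% of the 2833, and in HIRA KO 22.4%, beside 12.0% and 20.2%, a share near the latter. Among those that fell was Csad, which makes hypotaurine from a product of cysteine, from 340.2 ± 79.5 to 76.2 ± 21.6 CPM in the controls (mean ± SD, n = 4), with a log2 fold change of -2.16 ± 0.25 (SE) and edgeR adjusted p = 0.000146. In HIRA KO it fell from 554 ± 92.9 to 168 ± 53.3 CPM, with a log2 fold change of -1.73 ± 0.25 (SE) and edgeR adjusted p = 0.000536. Hal, which opens histidine breakdown ahead of Uroc1 and Ftcd, fell in the controls with a log2 fold change of -1.20 ± 0.22 (SE) and edgeR adjusted p = 0.00214, and Dmgdh, which demethylates the dimethylglycine left by Bhmt, with a log2 fold change of -1.05 ± 0.18 (SE) and edgeR adjusted p = 0.00172. The 4 that rose in the controls were Asns, Psat1, Aldh18a1 and Gatm, which build asparagine, serine, proline and creatine. They were scarce before regeneration, at a mean of 0.389, 0.46, 1.37 and 11.5 CPM, and stood at 4.76, 5.03, 6.96 and 17.6 CPM after it. Aldh18a1 rose in HIRA KO as well (a log2 fold change of 1.49 ± 0.38 (SE) and edgeR adjusted p = 0.0183), as did Gatm. Qprt was called higher in HIRA KO, from 186 ± 24.7 to 249.6 ± 30.8 CPM, and not in the controls, from 225 ± 8 to 218 ± 15.6 CPM, and the interaction was not called (edgeR adjusted p = 0.57).

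Listed regulators of these genes were also read after against before regeneration. Klf15, a transcription factor of amino acid breakdown in fasting, fell in both. It went from 213 ± 23.2 to 78.7 ± 11.1 CPM in the controls (mean ± SD, n = 4), with a log2 fold change of -1.44 ± 0.17 (SE) and edgeR adjusted p = 0.00012, and from 177 ± 41.01 to 86.3 ± 14.6 CPM in HIRA KO, with a log2 fold change of -1.04 ± 0.17 (SE) and edgeR adjusted p = 0.000877. Cebpa fell in the controls (a log2 fold change of -0.91 ± 0.21 (SE) and edgeR adjusted p = 0.011). Its mean in HIRA KO went from 353.7 to 238.6 CPM. In HIRA KO the glucagon receptor Gcgr and the glucocorticoid receptor Nr3c1 fell, with log2 fold changes of -0.54 and -0.30. In the controls Gcgr went from 265.4 to 188.5 CPM and Nr3c1 from 56.1 to 53.0 CPM. All 9 regulators lay below 0 in both genotypes. The test called 2 in the controls (22.2%, beside 4.17% of all genes called lower) and 4 in HIRA KO (44.4%, beside 5.53%). The interaction called none of them. None of these regulators was called between the genotypes.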

How the data were processed

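Poly(A) RNA of whole mouse liver was sequenced from 16 libraries made with a directional kit, 4 in each of 4 groups. The authors deposited gene counts, whole numbers that are not normalized, and FPKM values for the same libraries. Their methods name STAR on mm10 and HOMER for the counts, while the submitters' processing notes name STAR, HTSeq and Cufflinks, so which tool made the counts is unclear. Groups were taken from the labels and columns were matched to them by name.

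Genes with at least 10 counts over all libraries (23018 of 55421) were fitted with edgeR 4.0.16 in R 4.3.3, with TMM factors (0.915 to 1.10), robust quasi-likelihood tests, a mean for each group and Benjamini-Hochberg adjustment over all genes. A call is an adjusted p under 0.05. The fit was tested on simulated data. DESeq2 1.42.0, the study's own tool, limma 3.58.1 on log2(FPKM + 1), other scalings and filters, and fits without single libraries were the alternatives. Libraries were numbered without naming the mouse, so p-values measure the spread between libraries. By the study's methods the tissue before and after regeneration came from the same operated mice, but which libraries share a mouse is not given. The main tests treated all libraries as independent. Every pair of replicates differed beyond sampling noise (chi-square per degree of freedom of 12.4 to 135).

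Whether column numbers pair the libraries was checked by correlating deviations from the group means. Same-numbered libraries correlated at 0.20 to 0.30 for HIRA KO against control before and 0.39 to 0.59 for regeneration in HIRA KO. Every pair of these 2 comparisons exceeded 0.1. The range was 0.01 to 0.24 for HIRA KO against control after regeneration and 0.08 to 0.38 for regeneration in the controls. In the controls every same-numbered pair still lay above the highest other pair, at 0.07. For regeneration in HIRA KO the highest other pair was 0.52. The numbers stand in the column names and were not tied to a label.

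Promoters came from RefSeq (GRCm38.p6), and gene coordinates from GENCODE M21, whose IDs matched 54673 of the 55421. For each comparison, called members were named with their values (the 8 largest changes if more were called), and the 4 largest changes where fewer than 4 were called. Members and lists were chosen with earlier results of these data known. Some items of these lists are not reported here.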

Additional observations from a re-analysis of the deposited data

Results flagged for a closer look

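In the 152 sets of 4 libraries examined (38 members in 4 groups), 3 held a library whose gap to its nearest neighbour took up more of the range than Dixon's critical value for 4 samples allows, where chance gives about 1 in 20. Aldh4a1, which completes proline breakdown, was at 354.7 CPM in HIRA KO library 2 after regeneration, with the other 3 at 245.7 to 262.3 CPM. Bckdha, a subunit of the branched-chain keto acid dehydrogenase, was at 111.0 CPM in control library 4 before regeneration (the others at 88.06 to 90.61 CPM) and at 83.12 CPM in control library 1 after it (the others at 61.81 to 63.66 CPM). Neither gene was called in any comparison.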

How the results depend on the processing

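Between genotypes before regeneration, DESeq2 called 1 member. The main edgeR fit called 0, as did every fit that left out 1 library. Over all genes DESeq2 called 228 higher and 147 lower of 15792, and the main fit 8 and 1 of 23018. After regeneration the single call became 0 with upper-quartile factors, no low-count filter, only the groups compared, limma on log2(FPKM + 1) or log2(FPKM + 0.1), or without the 4 libraries that stood apart. DESeq2 called 4, beside 491 genes higher and 419 lower of 15354 over all genes. Leaving out 1 library gave 0 to 3. Without HIRA KO library 3 after regeneration, 212 genes were called higher and 135 lower of 22678. For regeneration in the controls, 12 calls became 26 with DESeq2, 19 with only the groups compared and 21 without the libraries that stood apart. The range was 5 to 20 when 1 library was left out. Calls over all genes rose too, from 1390 higher and 960 lower of 23018 in the main fit. DESeq2 gave 1793 and 1489 of 17104, and only the groups compared gave 1812 and 1463 of 20144. Without the libraries that stood apart there were 2063 and 1795 of 21500. For regeneration in HIRA KO, 6 calls became 10 with DESeq2 and 3 with only the groups compared, and leaving out 1 library gave 3 to 8. Over all genes the main fit called 1492 higher and 1272 lower of 23018. DESeq2 called 1872 and 1782 of 17542, and only the groups compared gave 868 and 563 of 20922. The interaction had 0 calls under each alternative run.

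With the column number as a replicate block, the calls were 0 between genotypes before and 4 after regeneration, 20 for regeneration in the controls, 10 in HIRA KO and 0 for the interaction. Over all 23018 genes the block called 71 higher and 33 lower between genotypes before and 255 and 310 after regeneration. For regeneration it called 1646 and 1210 in the controls and 1773 and 1628 in HIRA KO. In the controls the added member calls included Cps1 (edgeR adjusted p = 0.0156), Ass1 (0.00621) and Slc25a15 (0.00788). With these, 5 of the 7 urea cycle members were called lower. For regeneration, 8 of 8 libraries correlated best with their own number in the controls and 7 of 8 in HIRA KO. Between the genotypes 4 of 8 did before and 2 of 8 after regeneration. The block also ties control and HIRA KO libraries of the same number, which came from different mice, so it is not a pairing by mouse.

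The log2 differences of Ass1 before regeneration (-0.30) and of Got1 (-0.014) and Sds (-0.30) after it turned negative without the libraries that stood apart. Every control library was kept in that fit. Of the named members' other values, 415 kept their direction and side of the threshold, 73 lost and 5 gained the call. The causes were not tested. Over all genes after regeneration, 46 were called higher and 67 lower in HIRA KO with TMM, 41 and 11 with upper-quartile factors and 491 and 419 with DESeq2. In the regeneration comparisons limma on log2(FPKM + 1) called 1410 higher and 479 lower in the controls and 1986 and 648 in HIRA KO, against 1390 and 960 and 1492 and 1272. The lowest member count was 437, and counting error was not set beside the spread of each member. For Amt in HIRA KO before regeneration that spread was small, at a mean of 64.7 ± 3.05 CPM (SD).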
